A study of Mus musculus with 9 samples.

Results

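Immunoglobulin variable genes were followed in bulk RNA from pancreatic islets, the hormone-secreting cell clusters of the pancreas. The 64 genes described were the rows of the count table with a mouse symbol beginning Ighv, Igkv or Iglv and at least 50 counts summed over the 9 libraries. They were thus chosen by summed counts, with no test between diets. The libraries of the low fat diet gave 20809 of the 22286 counts of these genes, so the minimum favoured genes used there. They were 26 heavy chain (Ighv), 36 kappa light chain (Igkv) and 2 lambda light chain (Iglv) genes, out of 56941 rows in all. The table held 348 variable gene rows, of which 177 had any count and 171 had none. A gene could enter through 1 library with many counts. Just inside the minimum lay Igkv5-43 with 51 counts and Igkv17-127, Igkv4-59, Ighv1-42 and Igkv6-25 with 52 each. Just outside lay Igkv10-94 with 49 counts and Igkv9-120 and Iglv2 with 48 each.

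Each B lymphocyte makes an antibody from 1 rearranged heavy chain and 1 rearranged light chain, and the variable gene segment chosen in each rearrangement forms most of the antigen-binding domain. Usage, the share of a locus taken by each variable gene, therefore describes the mixture of B cells and plasma cells whose RNA is in a sample, with plasma cells giving far more immunoglobulin RNA per cell. B-1a cells, a self-renewing B cell subset of the body cavities, are known for recurrent pairs. Ighv11-2 with Igkv14-126, and Ighv12-3 with Igkv4-91, form receptors for phosphatidylcholine. Ighv7-1 with Igkv7-33 forms the classical phosphorylcholine receptor.

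The mice were male wild-type C57BL/6J, 15 weeks old when put on diet and kept on it for 9 months. The diets were a low fat control diet with 10% fat (LFD, 3 libraries), a high fat diet with 60% fat (HFD, 2 libraries) and a ketogenic diet with 89.9% fat (KD, 4 libraries). The comparison asks what the ketogenic diet does to islet transcripts. Libraries are named by diet and replicate number, as LFD 1, HFD 2 or KD 4. Nothing in the labels says that the replicates came from separate animals, so p-values measure the spread between these samples. Dates and batches were not given, and any batch effect cannot be told apart from the diets.

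Library totals ran from 15513502 to 26588390 counts. Levels are given as CPM, a gene's counts scaled to a common library size. Beta cell genes were present in every library, at a summed 30280 to 107500 CPM over 8 genes, as the islet label has it. The summed level of 12 acinar genes, digestive enzymes of the exocrine pancreas, lay between 101700 and 278300 CPM on LFD, 63160 and 127300 on HFD, and 142800 and 931500 on KD. CPM here was computed on library sizes scaled by TMM, whose factors ran from 0.542 in KD 1 to 1.503 in HFD 2. A CPM value is therefore not a share of the counts of a library. In KD 1, which held 23746412 counts, the scaled size was 12852590, so its acinar share was far lower than its CPM reads. The part of acinar RNA in the results that follow was not tested. In bulk RNA, fewer B cells and less immunoglobulin RNA per cell cannot be told apart.

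Variable gene RNA was highest in the LFD libraries, but 1 LFD library was low. The 64 genes summed to 342.1 CPM in LFD 1, 668.7 in LFD 2 and 14.35 in LFD 3. They summed to 25.71 and 26.1 CPM in HFD 1 and HFD 2. The KD libraries held 11.67, 4.767, 1.158 and 3.137 CPM. LFD 1 and LFD 2 stood above every other library, LFD 3 fell below both HFD libraries, and every KD library lay below every LFD and HFD library. The means were 341.7 ± 327.2 CPM on LFD (SD, n = 3), 25.91 ± 0.276 on HFD (n = 2) and 5.18 ± 4.57 on KD (n = 4). Over all variable gene rows the means were 362.1 CPM on LFD, 31.57 on HFD and 6.445 on KD. The LFD mean moved to 178.2 CPM without LFD 2 and 505.4 without LFD 3, and the KD mean to 3.02 CPM without KD 1.

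**Figure D1:**
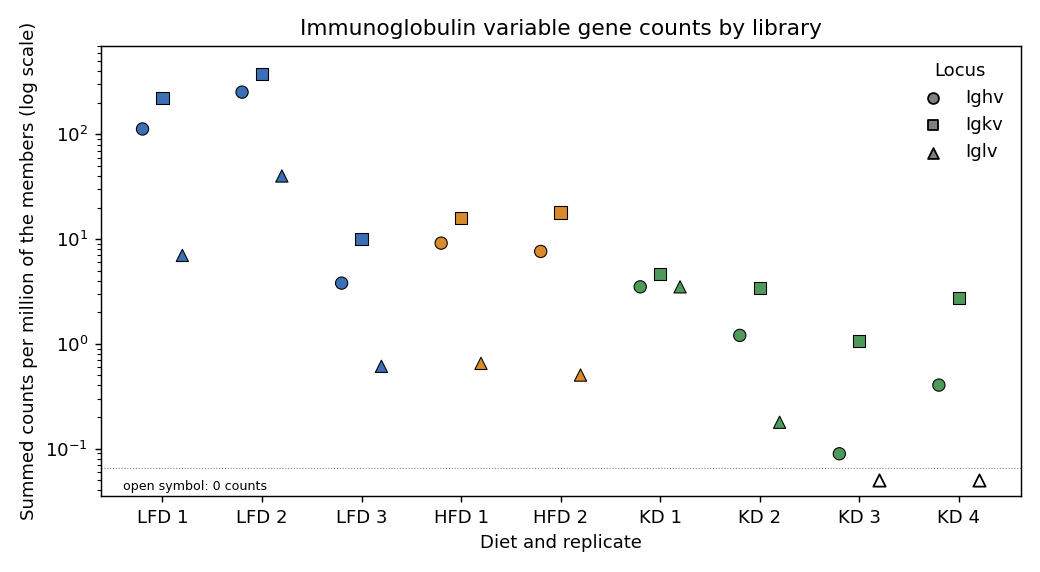
Summed CPM of the Ighv (circles), Igkv (squares) and Iglv (triangles) members in each library, on a log scale, coloured by diet. Open triangles below the dotted line mark KD 3 and KD 4, which had 0 Iglv counts. LFD 1 and LFD 2 sit above the rest, and LFD 3 sits below HFD 1 and HFD 2 for Ighv and Igkv.

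These levels rest on very unequal counts. Of 22286 member counts, LFD 2 gave 66.97%, LFD 1 gave 25.03% and LFD 3 gave 1.373%. HFD 1 and HFD 2 held 514 and 623 member counts. The KD libraries held 150, 107, 13 and 70. Shares therefore have narrow counting intervals in LFD 1 and LFD 2, and are coarse in LFD 3 and HFD and close to unreadable in KD 3. Shares of a variable gene or family are of the member counts of its locus unless all rows are named. Members held 93.29%, 95.86% and 65.67% of all variable gene counts in LFD 1 to LFD 3. They held 75.04% and 90.42% on HFD and 90.36%, 79.85%, 61.9% and 62.5% on KD.

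Heavy chain genes summed to 112.7, 253.4 and 3.799 CPM in the LFD libraries, 9.155 and 7.626 on HFD, and 3.501, 1.203, 0.0891 and 0.403 on KD. Kappa genes summed to 222.4, 375.2 and 9.943 CPM on LFD, 15.91 and 17.98 on HFD, and 4.668, 3.386, 1.069 and 2.733 on KD. Lambda genes summed to 6.99, 40.1 and 0.610 CPM on LFD, 0.650 and 0.503 on HFD, and 3.501, 0.178, 0 and 0 on KD. The kappa sums kept the order of the whole, and the heavy chain sums did so apart from HFD 1 and HFD 2 changing places, whereas the lambda sum of KD 1 exceeded those of LFD 3 and both HFD libraries.

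Pooled over the libraries of a diet, the member level on LFD was 70.3 times that on KD (95% interval 63.1 to 78.5) and 13.4 times that on HFD (12.6 to 14.2). The ratio of HFD to KD was 5.25 (4.65 to 5.94). For LFD over KD the ratio was 106 for Ighv (85.4 to 133.5), 67.1 for Igkv (58.5 to 77.3) and 23.95 for Iglv (17.98 to 32.6). These exact intervals cover counting error only and treat each count as independent. The counts carry no molecular identifiers, so several may come from 1 molecule or 1 cell, and the intervals may be too narrow. They also leave out the spread between libraries, which was far wider. The intervals of shares given below have the same limits. The Iglv ratio of HFD to KD was 0.801 (0.474 to 1.32), which includes 1.

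Ighv11-2 and Igkv14-126 had the most counts of their loci, 2080 for Ighv11-2 and 2887 for Igkv14-126. The final 288 bases of their germline coding sequence are shown for that reason. The near copy Ighv11-1 is shown because short reads could confuse it with Ighv11-2. The sequences are the GENCODE M21 transcripts of the C57BL/6J reference, 5′ to 3′ on the coding strand, and lie within 1 coding exon each. Capitals mark the end from the last in-frame cysteine codon, which leads into the third complementarity-determining region and is joined in the B cell to a D or J segment. Coordinates are of GRCm38, whereas the counts were made on GRCm39. Ighv11-2 (ENSMUSG00000096108) lies at chr12:114048241-114048528 on the minus strand and Ighv11-1 (ENSMUSG00000094533) at chr12:113981879-113982166 on the same strand. Igkv14-126 (ENSMUSG00000094345) lies at chr6:67896355-67896642 on the plus strand.
Ighv11-2: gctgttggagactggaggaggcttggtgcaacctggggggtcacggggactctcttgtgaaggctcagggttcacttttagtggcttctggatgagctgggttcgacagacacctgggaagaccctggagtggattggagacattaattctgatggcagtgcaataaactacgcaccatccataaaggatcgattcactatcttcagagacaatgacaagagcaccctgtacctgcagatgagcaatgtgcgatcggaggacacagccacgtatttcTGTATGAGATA
Ighv11-1: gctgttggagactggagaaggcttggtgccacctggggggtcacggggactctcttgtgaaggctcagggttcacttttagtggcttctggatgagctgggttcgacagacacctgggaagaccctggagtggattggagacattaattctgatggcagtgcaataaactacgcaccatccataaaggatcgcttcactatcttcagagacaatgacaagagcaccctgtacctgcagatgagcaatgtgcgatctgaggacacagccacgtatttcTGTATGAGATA
Igkv14-126: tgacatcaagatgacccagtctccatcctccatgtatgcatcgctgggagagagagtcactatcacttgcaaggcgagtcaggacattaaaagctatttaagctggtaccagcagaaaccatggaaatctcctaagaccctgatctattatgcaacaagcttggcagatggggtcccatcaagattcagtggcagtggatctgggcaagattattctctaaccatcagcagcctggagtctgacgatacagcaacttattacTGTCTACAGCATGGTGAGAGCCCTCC

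Ighv11-2 and Ighv11-1 differed at 4 bases of these runs, G18A, A30C, A193C and G256T, with positions counted from 1 at the 5′ end of the run and the base of Ighv11-2 given first. Their coding sequences were 98.87% identical, and 52.3% of the 50-base windows of Ighv11-2 also occurred in another variable gene. Ighv11-1 was nevertheless listed with 8 counts in all, 4 in LFD 1 and 4 in LFD 2, so little signal was split to it. How reads that fit both genes were counted is not given in the sources used here. Igkv14-126 shared no 50-base window with any variable gene, and its nearest relative, Igkv14-111, was 91.5% identical.

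Ighv11-2 led the heavy chain locus in each LFD library. It had 669, 1349 and 23 counts in LFD 1 to LFD 3, 0 and 35 in HFD 1 and HFD 2, and 0, 4, 0 and 0 in KD 1 to KD 4. As a share of Ighv member counts this was 36.4% in LFD 1 (95% Wilson interval 34.2 to 38.6), 23.9% in LFD 2 (22.8 to 25.0) and 28.4% in LFD 3 (19.7 to 39.0). The intervals of LFD 1 and LFD 2 did not meet, but the LFD shares differed far less than the amounts of the gene, which were 41.0, 60.5 and 1.08 CPM.

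The HFD libraries disagreed with each other. HFD 2 gave Ighv11-2 a share of 19.2% (14.2 to 25.6), next to that of LFD 2. Over all Ighv rows Ighv11-2 had 35 of 228 counts in HFD 2 and 23 of 147 in LFD 3. HFD 1 gave Ighv11-2 0 of 183 Ighv member counts, which at 3 counts allows a share of up to 1.64% (Wilson upper limit 2.06%). In KD 2 the 4 counts were 14.8% of 27 (5.92 to 32.5). At 3 counts, the 0 of 45 in KD 1 allows up to 6.67% and the 0 of 9 in KD 4 up to 33.3% (Wilson upper limits 7.87% and 29.9%). In KD 4 a share as in LFD could thus not be seen at this depth. KD 3 held 1 Ighv count and shows no share.

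Igkv14-126 followed the same libraries. It had 969, 1804 and 53 counts on LFD, 4 and 50 on HFD, and 0, 7, 0 and 0 on KD. Its share of Igkv member counts was 26.7% in LFD 1 (25.3 to 28.2), 21.5% in LFD 2 (20.7 to 22.4) and 25.0% in LFD 3 (19.7 to 31.2). It led the kappa locus in LFD 2 and LFD 3 and was next to Igkv3-4 in LFD 1. It held 11.7% in HFD 2 (8.95 to 15.0), 1.26% in HFD 1 (0.490 to 3.19) and 9.21% in KD 2 (4.53 to 17.8). At 3 counts, the 0 of 60 in KD 1 allows up to 5.00% and the 0 of 61 in KD 4 up to 4.92% (Wilson upper limits 6.02% and 5.92%).

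The mean LFD share was 29.5% ± 6.35 (SD, n = 3) for Ighv11-2 and 24.4% ± 2.63 for Igkv14-126. With all rows of the locus as denominator these means were 23.85% and 21.45%. Each library with Ighv11-2 counts also had Igkv14-126 counts, and HFD 1 alone had the light chain without the heavy chain. Igkv14-126 counts per Ighv11-2 count were 1.45 in LFD 1 (exact 95% interval 1.31 to 1.601), 1.34 in LFD 2 (1.24 to 1.44) and 2.30 in LFD 3 (1.39 to 3.94). The ratio was 1.43 in HFD 2 (0.909 to 2.27) and 1.75 in KD 2 (0.445 to 8.15). The counting intervals of these 5 libraries overlapped. Per kilobase of exon the ratios were 1.86, 1.72 and 2.97 on LFD and 1.84 in HFD 2. Bulk counts do not show whether both chains came from the same cells.

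**Figure D2:**
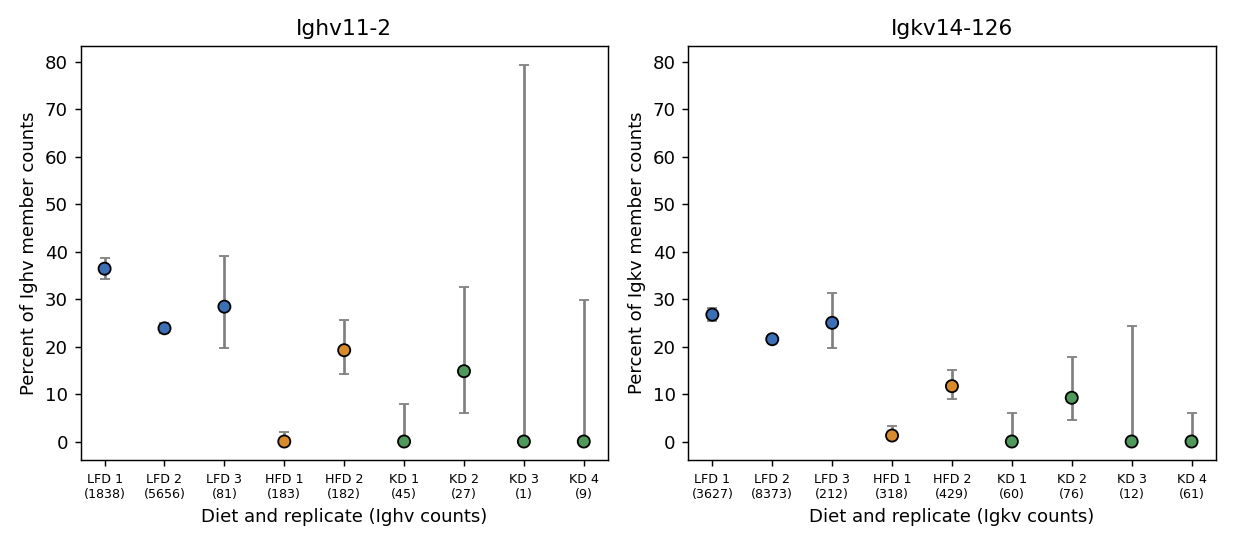
Share of Ighv member counts taken by Ighv11-2 (left) and of Igkv member counts taken by Igkv14-126 (right) in each library, in percent. Bars are 95% Wilson intervals, and the member counts of the locus are in brackets under each library name. The LFD points lie between 21.5% and 36.4%, HFD 2 and KD 2 between 9.21% and 19.2%, and the KD 3 bars span most of the axis for Ighv because that library had 1 count.

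The phosphatidylcholine pair Ighv12-3 and Igkv4-91 was scarcer. Its germline ends are shown for comparison with the leading pair. On GRCm38, Ighv12-3 (ENSMUSG00000076676) lies at chr12:114366521-114366808 and Igkv4-91 (ENSMUSG00000076532) at chr6:68768555-68768842, both on the minus strand, with capitals marked as above.
Ighv12-3: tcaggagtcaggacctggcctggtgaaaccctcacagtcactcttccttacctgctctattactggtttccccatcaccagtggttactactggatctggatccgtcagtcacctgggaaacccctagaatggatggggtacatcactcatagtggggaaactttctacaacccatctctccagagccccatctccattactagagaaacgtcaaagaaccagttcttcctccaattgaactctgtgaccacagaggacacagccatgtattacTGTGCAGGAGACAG
Igkv4-91: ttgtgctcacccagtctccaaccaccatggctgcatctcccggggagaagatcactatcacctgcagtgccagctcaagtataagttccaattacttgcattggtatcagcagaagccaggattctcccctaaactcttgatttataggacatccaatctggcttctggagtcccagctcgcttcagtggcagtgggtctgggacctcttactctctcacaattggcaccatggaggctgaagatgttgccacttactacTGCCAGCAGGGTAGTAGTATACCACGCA

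Ighv12-3 had 58, 93 and 0 counts on LFD, 0 and 2 on HFD and 0 in every KD library. Igkv4-91 had 235, 88 and 0 counts on LFD, 0 and 24 on HFD and 0 in every KD library. Both genes were thus present in the same 3 libraries, LFD 1, LFD 2 and HFD 2, which also held the leading pair. The light to heavy ratio was 4.05 in LFD 1 (3.03 to 5.50), 0.946 in LFD 2 (0.699 to 1.28) and 12 in HFD 2 (2.98 to 104.8), so these counts did not keep 1 ratio. The phosphorylcholine pair stayed under the minimum: Ighv7-1 had 25 counts, of which 17 were in LFD 1 and 7 in HFD 1, and Igkv7-33 had 2.

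Behind Ighv11-2, the heavy chain libraries differed in their next genes. In LFD 1 the next was Ighv3-6 at 11.7% of Ighv counts (215 of 1838). In LFD 2 it was Ighv2-3 at 13.0% (736 of 5656), a gene with 6 counts in LFD 1, 0 in LFD 3, 0 in both HFD libraries and 4 in KD 2. In LFD 3 it was Ighv1-82 at 17.3% (14 of 81). Ighv1-12 was another gene of LFD 2, which held 499 of its counts against 5 in HFD 1 and 0 elsewhere.

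The HFD libraries had leaders of their own. Ighv1-26 led HFD 1 with 40 of 183 Ighv counts, 21.9% (16.5 to 28.4), just above Ighv1-80 with 36. Ighv1-82 led HFD 2 with 91 of 182, 50% (42.8 to 57.2). Ighv1-82 had 68, 619 and 14 counts in the LFD libraries, 1 in HFD 1 and 0, 2, 0 and 0 on KD. The counting interval of its share in HFD 2 lay above its LFD shares of 3.70%, 10.9% and 17.3%. Its share in HFD 1 was 0.546% (0.0965 to 3.03).

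On KD the heavy chain counts came from few genes and from different ones in each library. KD 1 had 31 of its 45 Ighv counts on Ighv1-42, a gene with 21 counts in LFD 1 and 0 in the other 7 libraries, and 9 on Ighv3-6. KD 2 had 17 of 27 on Ighv1-72. KD 4 had 4 of 9 on Ighv1-78 and 3 on Ighv1-74. Reads of Ighv1-72 are uncertain, since 91.39% of its 50-base windows occur in another variable gene and its coding sequence is 99.15% identical to that of Ighv1-62-3, which was listed at 0 counts.

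**Figure D3:**
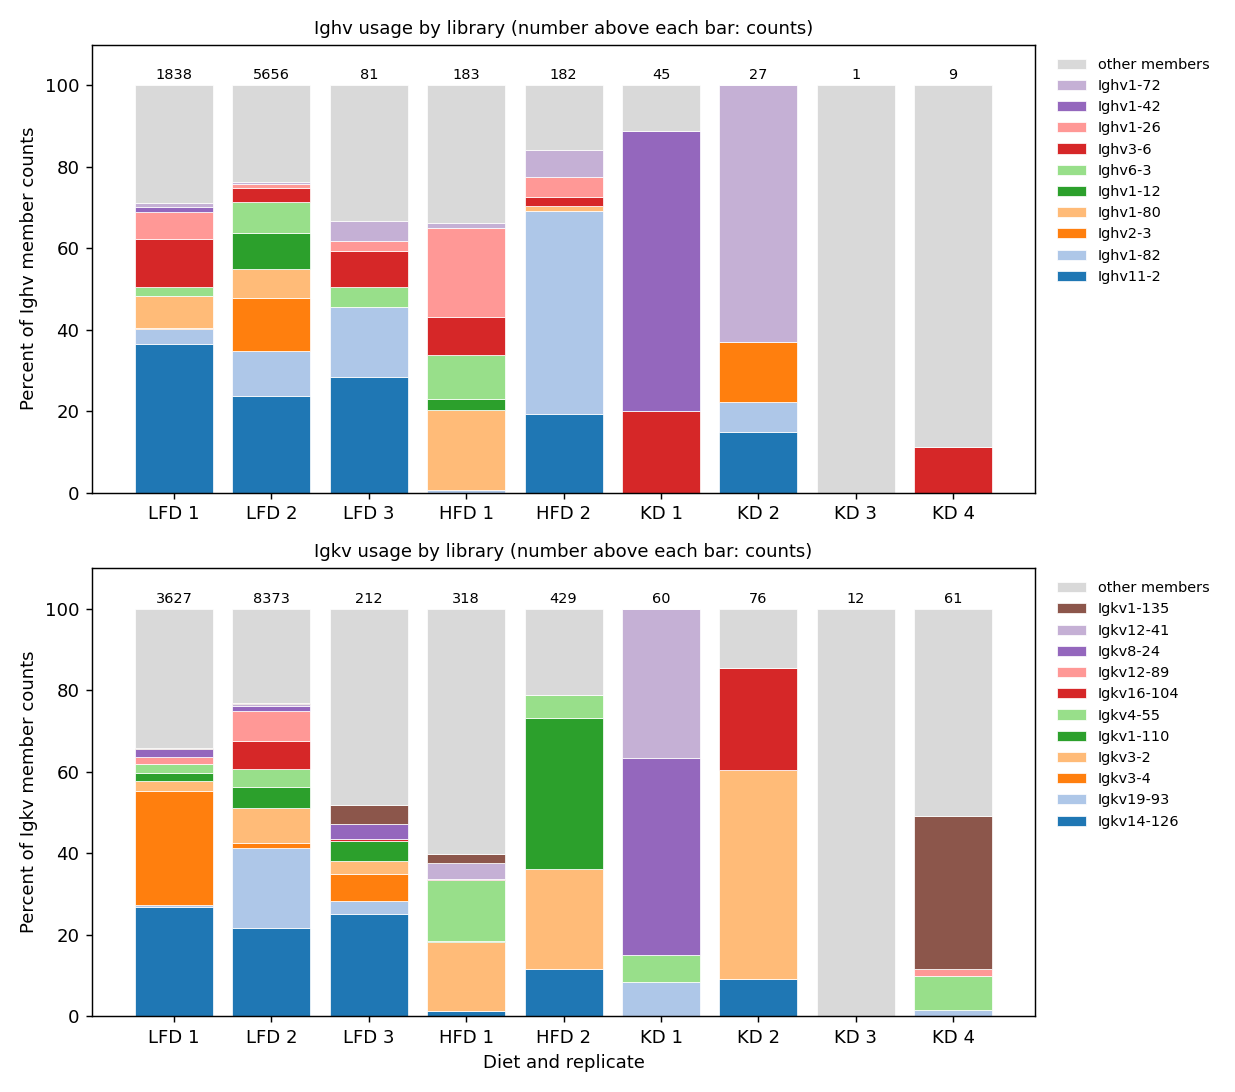
Stacked bars of the percent of Ighv member counts (top) and Igkv member counts (bottom) taken by the most used genes in each library, with the remaining members in grey and the locus counts above each bar. Ighv11-2 and Igkv14-126, at the base of the bars, fill 21.5% to 36.4% of each LFD bar. The leading colours change between the HFD and KD bars, several of which rest on fewer than 100 counts.

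Kappa usage also carried genes of 1 library. Igkv3-4 took 28.0% of LFD 1 (1017 of 3627 Igkv counts) but 1.30% of LFD 2 (109) and 6.60% of LFD 3 (14), and it had 0 counts in all 6 other libraries. Igkv19-93 took 19.7% of LFD 2 (1646 of 8373) but had 23 counts in LFD 1, 7 in LFD 3, 0 on HFD and 5, 0, 0 and 1 on KD. Igkv16-104 had 565 of its counts in LFD 2, against 2, 1, 1 and 0 in the other LFD and HFD libraries and 19 in KD 2. Igkv12-89 had 627 in LFD 2, 58 in LFD 1, 1 in KD 4 and 0 in the rest. The kappa profiles of LFD 1 and LFD 2 thus both gave Igkv14-126 a large share, at intervals that did not meet, and differed in the gene beside it.

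Igkv3-2 recurred across diets. It had 90, 730 and 7 counts on LFD, 54 and 105 on HFD and 0, 39, 0 and 0 on KD. Its share was 2.48%, 8.72% and 3.30% in the LFD libraries, 16.98% in HFD 1 (13.25 to 21.5), where it led, 24.5% in HFD 2 (20.6 to 28.8) and 51.3% in KD 2 (40.3 to 62.2), where it led again. The intervals of both HFD libraries and of KD 2 lay above those of the 3 LFD libraries. At 3 counts, 0 of 60 and 0 of 61 in KD 1 and KD 4 allow 5.00% and 4.92% (Wilson upper limits 6.02% and 5.92%).

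Igkv1-110 led HFD 2 with 159 of 429 Igkv counts, 37.1% (32.6 to 41.7). It had 1 count in HFD 1, 70, 415 and 10 on LFD and 0 on KD. In KD 1, Igkv8-24 held 29 of 60 counts and Igkv12-41 held 22. In KD 4, Igkv1-135 held 23 of 61 counts, 37.7% (26.6 to 50.2), and Igkv8-30 held 12. KD 3 had 12 kappa counts, 8 on Igkv12-44 and 4 on Igkv8-30.

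The germline ends of these kappa leaders are given because they hold the germline part of the third complementarity-determining region, next to the join with a J segment. Each run starts at the last in-frame cysteine codon and ends with the coding segment.
Igkv3-4: TGTCAGCAAAGTAATGAGGATCCTCC
Igkv19-93: TGTCTACAGTATGATAATCTTCTACC
Igkv3-2: TGTCAGCAAAGTAAGGAGGTTCCTCC
Igkv1-110: TGCTCTCAAAGTACACATGTTCCTCC
Igkv8-24: TGTCAGCAACATTATAGCACTCCTCC
Igkv1-135: TGCTGGCAAGGTACACATTTTCCTCA
Among heavy chains the end is short and little varied: TGTGCAAGA closed 15 of the 17 Ighv1 members, whereas Ighv11-2 ended in TGTATGAGATA.

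Lambda was a minor locus except in 1 library. Iglv1 had 89, 871 and 11 counts on LFD, 12 and 11 on HFD and 45, 0, 0 and 0 on KD. Iglv3 had 25, 24 and 2 on LFD, 1 and 1 on HFD and 0, 4, 0 and 0 on KD. Lambda made up 3.05%, 9.66% and 5.78% of light chain variable counts in the LFD libraries and 3.93% and 2.72% in the HFD libraries. In KD 1 it made up 42.9% (33.8 to 52.4), all of it Iglv1. Constant region genes, which the member rule did not use, gave the same picture: lambda constant genes held 34.9% of light chain constant counts in KD 1 and 1.94% to 8.85% in the LFD and HFD libraries. Iglv1 shares 25.17% of its 50-base windows with another variable gene, and its nearest relative Iglv2 was listed with 16, 14 and 18 counts in the LFD libraries and 0 in the other 6.

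The members fell into 24 families of related segments, the largest being Ighv1 with 17 members, Igkv4 with 7 and Igkv1 with 5. Ighv1, the largest mouse heavy chain family, took 40.7%, 47.4% and 58.0% of Ighv counts in the LFD libraries, 74.3% and 76.9% on HFD and 80.0% and 70.4% in KD 1 and KD 2. These 4 HFD and KD values thus lay above the 3 LFD values, although the interval of KD 2 was 51.5 to 84.2. With Ighv11-2 left out of the denominator the shares were 63.99%, 62.2% and 81.0% on LFD, 74.3% and 95.2% on HFD and 80.0% and 82.6% in KD 1 and KD 2. LFD 3 then lay among the HFD and KD libraries, so the separation of the Ighv1 share rested in part on Ighv11-2.

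Position along the locus was read from the order of genes in the GENCODE M21 annotation, counted from the constant region. Ighv11-2 was 43 of 185 Ighv genes and Ighv1-82 was 181. The 92 genes nearest the constant region held 64.5%, 64.8% and 53.1% of all Ighv counts in the LFD libraries and 24.7% and 27.6% on HFD. On KD they held 39.3%, 30.8% and 40.6% in KD 1, KD 2 and KD 4, on 61, 39 and 32 counts, and 4 of 5 counts in KD 3. The LFD and HFD intervals did not meet. Without Ighv11-2, which lies among those 92, the shares were 46.9%, 54.4% and 44.4% on LFD and 24.7% and 14.5% on HFD, still apart. Kappa showed no such order: the 80 nearest genes held 55.6%, 32.8% and 47.6% on LFD and 70.7% and 44.99% on HFD.

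The number of genes behind the counts also varied. Of the 64 genes, 60, 63 and 30 had counts in LFD 1 to LFD 3, 35 and 23 in HFD 1 and HFD 2, and 9, 12, 3 and 13 in KD 1 to KD 4. More reads reveal more genes, so the number expected in 100 variable gene counts was computed over all variable rows. It was 34.65, 34.3 and 38.2 in the LFD libraries, 38.0 and 22.2 in HFD 1 and HFD 2, and 10.2, 17.1 and 24.1 in KD 1, KD 2 and KD 4. At equal depth LFD 3 and HFD 1 were not below LFD 1 and LFD 2, while HFD 2 and the 3 KD libraries with enough counts drew on fewer genes. The inverse Simpson index of Igkv, an effective number of equally used genes, was 6.05, 8.95 and 8.92 on LFD, 9.55 in HFD 1 and 4.495 in HFD 2.

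Few genes carried most of each locus. The 3 most used kappa genes held 61.2%, 49.9% and 49.1% of Igkv counts in the LFD libraries, 46.2% in HFD 1, 73.2% in HFD 2 and 93.3%, 85.5% and 70.5% in KD 1, KD 2 and KD 4. Over all libraries, 55 of the 64 genes had more than 50% of their counts in 1 library, and 12 had more than 90%. LFD 2 was the highest library in CPM for 37 genes, LFD 1 for 21, HFD 1 for 3, KD 1 for 2 and HFD 2 for 1.

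The kappa profiles of libraries overlapped in part. The shared percentage, the sum over genes of the smaller of both shares, was 42.4 to 49.95 among the 3 LFD pairs, 27.3 between HFD 1 and HFD 2 and 18.7 to 34.5 between an LFD and an HFD library. For heavy chains only LFD 1 and LFD 2 had enough counts, and they shared 55.5%. These values are descriptions over 36 Igkv or 26 Ighv genes and fall with lower counts.

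**Figure D4:**
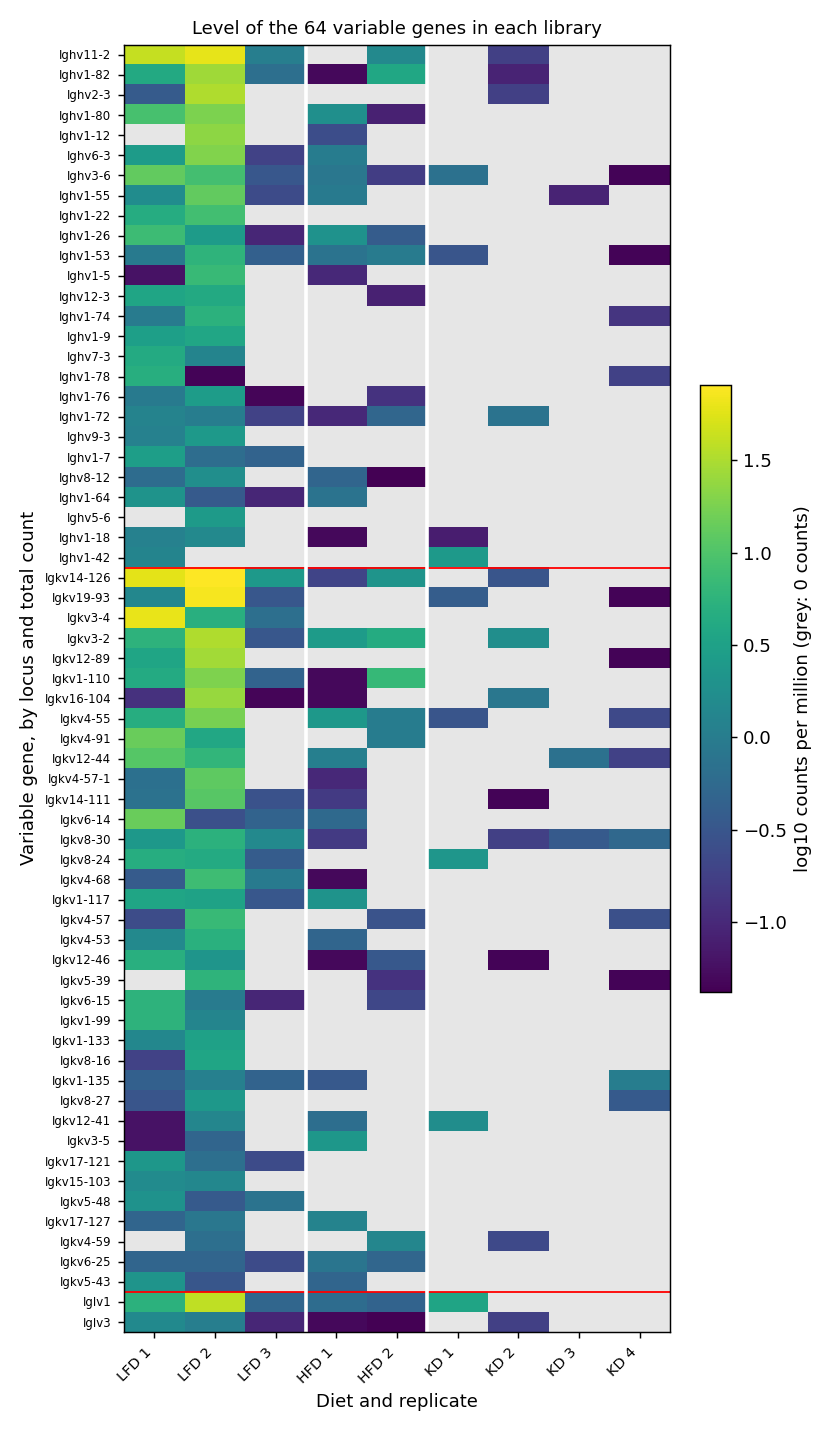
Level of each of the 64 genes in each library as log10 CPM, with 0 counts in grey, genes ordered by locus and total count, red lines between the loci and white lines between the diets. LFD 1 and LFD 2 are filled for 60 and 63 genes, LFD 3 for 30, HFD 1 and HFD 2 for 35 and 23, and the KD columns for 9, 12, 3 and 13.

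Differences between diets were tested with edgeR's quasi-likelihood test over all 18548 genes that passed a filter on low counts, with Benjamini-Hochberg adjustment. Of the 64 genes, 55 passed, and 9 with counts concentrated in too few libraries were not tested. Among the latter were Ighv2-3, Ighv1-12, Ighv5-6 and Igkv8-16. A gene that passed through its LFD counts alone had to differ, so the counts below describe these 55 and support nothing by themselves.

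With KD against LFD, 11 of 55 passed an adjusted p of 0.05 as lower and 0 as higher, against 3.14% of all genes tested called lower, 0.981% called higher and 4.12% called in either direction. The 11 were 3 of 21 Ighv, 8 of 32 Igkv and 0 of 2 Iglv genes. At an unadjusted p under 0.05, 48 were lower and 0 higher, against 11.9% and 10.8% of all genes, and DESeq2 called 26 of 52 members lower and 0 higher, against 5.91% of all genes called lower. All LFD libraries lay above all KD libraries for 21 of 55, of which 30 had counts in every LFD library and could do so, against 10.1% of all genes, and below them for 0, against 9.69%. The fitted log2 fold change was negative for 54, and its median was -7.57 against -0.02 over all genes. For 30 of the 55 the KD counts were all 0. With those at the bound that 3 counts over the KD libraries would give, the median change was -5.46, or 44.0-fold.

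The count of 11 depended on single libraries. It was 1 without LFD 1, 0 without LFD 2 and 35 without LFD 3. It was 7 without HFD 1 or HFD 2, and 1, 0, 0 and 5 without KD 1 to KD 4. The share of all genes called lower was 4.58% without LFD 3 and 0.778% to 3.52% in the other fits with 1 library left out.

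Ighv11-2 and Igkv14-126 were among the 11. Ighv11-2 averaged 34.2 ± 30.3 CPM on LFD and 0.0445 ± 0.0891 on KD (SD, n = 3 and n = 4), with a log2 fold change of -9.06 (SE 1.79, edgeR adjusted p = 0.0357). Its adjusted p over the alternatives ran from 0.00128 to 0.168. Igkv14-126 averaged 47.6 ± 40.5 and 0.0780 ± 0.156 CPM, with a log2 fold change of -8.80 (SE 1.56, adjusted p = 0.0273, range 7.64e-05 to 0.135). Each kept its direction throughout and passed the threshold in 8 of 15 settings. Every LFD library lay above every KD library for both, and the pooled LFD to KD ratios were 586 (228.5 to 2153) and 464 (225 to 1154).

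The other called genes were modest in amount. Their common trait was counts in every LFD library, which Igkv12-46 alone lacked. Igkv14-111, the nearest relative of Igkv14-126, had 12, 253 and 6 counts on LFD and 0, 1, 0 and 0 on KD (adjusted p = 0.0373). Igkv8-30 had 39, 121 and 31 counts on LFD and 0, 4, 4 and 12 on KD (log2 fold change -3.44, SE 0.76, adjusted p = 0.0322). Igkv12-46 had 80, 48 and 0 counts on LFD and 0, 1, 0 and 0 on KD (adjusted p = 0.0418), so its LFD and KD libraries overlapped.

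Of the called heavy chain genes, Ighv1-53 had 15, 127 and 9 counts on LFD and 4, 0, 0 and 1 on KD (log2 fold change -4.84, SE 1.13, adjusted p = 0.0412). Ighv1-7 had 48, 14 and 10 counts on LFD and 0 in every KD and HFD library, at least 27.6-fold lower on KD (adjusted p = 0.0354). Further kappa genes were at 0 in every KD library. Igkv4-68, with 6, 170 and 20 LFD counts, was at least 75.0-fold lower (adjusted p = 0.0492). Igkv17-121, with 37, 15 and 5, was at least 21.8-fold lower (adjusted p = 0.0466), and Igkv5-48, with 32, 8 and 16, at least 21.4-fold lower (adjusted p = 0.0339). Bounds are against 3 counts over the KD libraries together.

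Igkv6-25 and Ighv1-53 were called lower on KD, but in both HFD libraries they lay within or above their LFD range. Ighv1-53 had 15 and 23 counts on HFD, and its 0.750 and 0.964 CPM there lay between its lowest and highest LFD values of 0.422 and 5.69 CPM. Its pooled LFD level was still 2.907 times that on HFD (counting interval 2.025 to 4.266). Igkv6-25 had 8, 11 and 5 counts on LFD, 16 and 12 on HFD and 0 in every KD library, at least 9.19-fold lower on KD than on LFD (adjusted p = 0.0323). Both HFD values, 0.800 and 0.503 CPM, exceeded the highest LFD value of 0.493 CPM. The HFD against LFD difference did not pass the test (log2 fold change 0.68, SE 0.75, adjusted p = 0.773).

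The gene with most KD counts relative to LFD was Ighv1-42, the sole tested member whose fitted change was positive. Its 31 counts in KD 1 and 21 in LFD 1 gave a log2 fold change of 0.48 (SE 1.97, adjusted p = 0.916), which over the alternatives ran from -0.15 to 0.94. On KD, 34 of the 64 genes were at 0 in every library, 24 had counts in 1 library, 6 in more than 1 and 0 in all 4. Igkv8-30 was the most widespread, with counts in KD 2, KD 3 and KD 4. Some abundant LFD genes with most counts in 1 library were not called, among them Igkv3-4, at least 436-fold lower on KD (adjusted p = 0.209, range 0.000118 to 0.454), and Igkv19-93 with a log2 fold change of -8.04 (SE 2.37, adjusted p = 0.117, range 0.0322 to 0.269).

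With HFD against LFD, edgeR called 0 of 55, as it called 0% of all genes tested, and the smallest adjusted p of a member was 0.222, for Igkv8-30. At an unadjusted p under 0.05, 26 were lower and 0 higher, against 6.44% and 3.55% of all genes, and DESeq2 called 4 of 52, all lower, against 1.33% of all genes. Both HFD libraries lay below all LFD libraries for 12 of 55, of which 30 had counts in every LFD library and could do so, against 14.1% of all genes. They lay above all LFD libraries for 1, against 13.4%. The median fitted change was -4.21 against 0.00 over all genes, or -3.83 with the 16 genes at 0 on HFD held at their bound. Both comparisons share the LFD libraries. Ighv11-2 changed by -5.46 (SE 1.72, adjusted p = 0.407, range 0.00581 to 0.728) and Igkv14-126 by -5.32 (SE 1.54, adjusted p = 0.373, range 0.00119 to 0.698) on the log2 scale, neither past the threshold.

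On HFD, 4 members had a higher mean than on LFD. Igkv3-5 had 1, 11 and 0 counts on LFD against 46 and 0 on HFD. Igkv4-59 had 0, 15 and 0 against 0 and 32, and Igkv17-127 had 8, 19 and 0 against 25 and 0. In these 3 the HFD counts lay in 1 library, and Igkv6-25, described above, was the other.

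With KD against HFD, edgeR again called 0 of 55 members and 0% of all genes, with a smallest adjusted p of 0.124, for Igkv6-25. At an unadjusted p under 0.05, 8 were lower and 0 higher, against 10.6% and 12.1% of all genes, and DESeq2 called 2 of 24, both lower, against 3.16% of all genes. All KD libraries lay below both HFD libraries for 9 of 55, against 18.2% of all genes, but just 15 of the 55 had counts in both HFD libraries and could do so. The median fitted change was -2.18, against -0.04 over all genes. Over the 36 genes with enough counts for a ratio the median was -2.83, with 15 held at their bound on KD and 3 at their bound on HFD.

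Constant region genes bear on how much of the antibody RNA the variable rows catch. Igkv member counts per 100 Igkc counts were 77.7, 68.8 and 60.6 on LFD, 52.5 and 56.7 on HFD and 73.2, 53.9, 50 and 63.5 on KD. For heavy chains the values were 22.9, 17.99 and 7.07 on LFD, 14.0 and 10.1 on HFD and 14.8, 10.6, 1.67 and 3.01 on KD. The kappa ratio of both HFD libraries lay below that of every LFD library, and the KD values spanned both. The heavy chain ratio was low in LFD 3, KD 3 and KD 4. Counting all variable rows and not members alone, the heavy chain ratios were 25.2, 18.8, 12.8, 20.1, 12.7, 20, 15.3, 8.33 and 10.7 in the same order. Ighm, the constant gene of IgM, held 76.5% to 99.7% of heavy constant counts in the 9 libraries, and the largest other shares were 21.96% Igha in KD 2, 13.2% Igha in HFD 1 and 12.7% Ighg2b in KD 4.

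Genes of B lymphocytes outside the variable segments moved with the members. The summed level of 11 such genes, among them Cd79a and Ms4a1, was 94.6, 173.4 and 40.01 CPM on LFD, 15.8 and 19.1 on HFD and 14.4, 12.2, 7.21 and 8.74 on KD, with no gene of the list at 0 throughout a diet. Of these, 10 of 11 were called lower on KD than on LFD and 0 higher, against 3.14% and 0.981% of all genes tested. The other, Ebf1, a transcription factor of B cells that was not called (log2 fold change -0.86, SE 0.24, edgeR adjusted p = 0.0666), made up 72.3% to 82.7% of the sum in each HFD and KD library and 9.25% to 28.6% on LFD. Without Ebf1, left out after its level was seen, the sums were 76.3, 157.4 and 28.6 CPM on LFD, 3.70 and 5.28 on HFD and 3.19, 2.495, 1.25 and 2.02 on KD. LFD 3 lay above both HFD libraries on either sum and below them on variable genes.

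Of 12 tested constant and joining chain genes 5 were lower, and of 6 tested plasma cell genes 3 were lower, against 3.14% of all genes tested. The joining chain gene Jchain is counted in both lists, and Ighd is counted again among the follicular B cell genes below. The plasma cell genes summed to 145.7, 145.2 and 17.7 CPM on LFD, 31.2 and 22.9 on HFD and 22.2, 15.8, 16.8 and 11.7 on KD. Sdc1 and Prdm1, which were not called, made up 83.4% to 93.65% of this sum on KD. Without them, left out after their levels were seen, the sums were 121.3, 117.9 and 5.67 CPM on LFD, 15.5 and 6.70 on HFD and 2.57, 2.63, 1.07 and 1.30 on KD. Both sums of LFD 3 lay below those of the HFD libraries. The genes did not all share that order. Irf4, a transcription factor of plasma cells, had 0.704 CPM in LFD 3 against 0.650 and 0.377 on HFD, and Mzb1, a chaperone of antibody secretion, had 0.797 against 0.05 and 0.209. Jchain, which links IgM and IgA and is made in plasma cells, had 110.2, 93.6 and 4.13 CPM on LFD, 14.1 and 5.61 on HFD and 2.18, 1.96, 0.534 and 1.03 on KD.

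**Figure D5:**
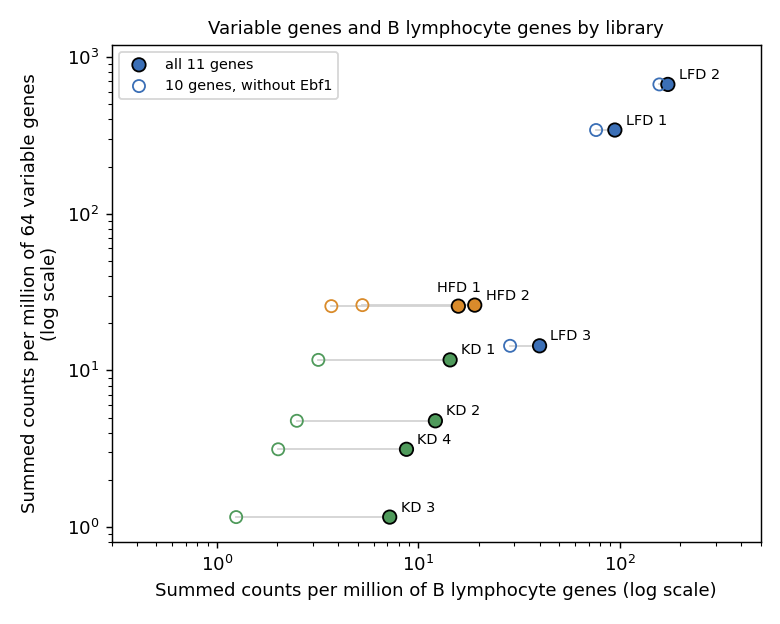
Summed CPM of the 64 variable genes against those of B lymphocyte genes in each library, both on log scales, coloured by diet, with filled points for all 11 B lymphocyte genes and open points for the 10 without Ebf1, joined by a grey line. LFD 3 lies to the right of HFD 1 and HFD 2, at 40.01 against 15.8 and 19.1 (28.6 against 3.70 and 5.28 without Ebf1), but below them, at 14.35 against 25.71 and 26.1.

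Further lymphoid markers were measured, and their part in the results was not tested. Genes called lower on KD than on LFD are counted below, beside 3.14% of all genes tested. Follicular B cell genes (Cr2, Fcer2a and Ighd) were lower in 3 of 3, with sums of 14.3, 33.1 and 8.02 CPM on LFD, 0.350 and 1.17 on HFD and 0 to 0.314 on KD. T cell genes were lower in 7 of 9, with sums of 15.8, 36.9 and 3.85 CPM on LFD, 1.601 and 1.47 on HFD and 0.713 to 1.11 on KD, with 2 of the 9 at 0 in both HFD libraries. Among genes of lymphoid stroma and vessels 1 of 4 tested was lower, Cxcl13, the chemokine that draws B cells into follicles. It had 28.1, 13.3 and 1.17 CPM on LFD, 0.900 and 0.293 on HFD and 0.0778 to 0.314 on KD. The others of that list did not follow it as a whole. Madcam1, a vessel ligand for lymphocytes, stood at 0.359 to 0.563 CPM on LFD, 4.2 and 2.6 on HFD and 0.267 to 0.717 on KD, and was called in no comparison. Ccl19, a chemokine of T cell zones, averaged 0.637 ± 0.420 CPM on LFD, 0.543 ± 0.0611 on HFD and 0.513 ± 0.354 on KD. Chst4 had 30 counts in KD 4 and at most 7 in any other library. Ccl21a was at 0 in both HFD libraries and was not called lower on KD (edgeR adjusted p = 0.0718).

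Of the genes known from B-1 cells, Zbtb32 and Spn were called lower on KD and Bhlhe41 was not. Cd5, a marker of B-1a cells that T cells also carry, had 6, 75 and 6 counts on LFD, 0 and 0 on HFD and 2, 0, 1 and 0 on KD, and it did not pass the low-count filter. Zbtb32 had 9, 40 and 2 counts on LFD, 0 and 2 on HFD and 0, 0, 0 and 1 on KD (edgeR adjusted p = 0.0441). Spn, which T cells also express, averaged 6.41 ± 5.35 CPM on LFD, 0.981 ± 0.381 on HFD and 0.647 ± 0.0933 on KD (edgeR adjusted p = 0.0115). Bhlhe41 stood at 24.4 to 42.0 CPM in all 9 libraries and did not follow the variable genes.

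Near-identical copies limit the naming of single genes. The nearest variable gene to a member had a median coding identity of 94.64% (57.57 to 99.15), and 30 of the 64 had a relative of at least 95%. A median of 18.16% of a member's 50-base windows occurred in another variable gene, and for 12 members none did. Members of crowded families such as Ighv1 are thus less certain than Igkv14-126, Igkv19-93 or Ighv12-3, which shared 0 windows.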

How the data were processed

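Strand-specific libraries were made from poly(A) RNA after a Trizol and chloroform extraction, per the labels' protocols. The authors deposited raw counts per Ensembl gene. The submitters' processing notes name cutadapt 1.16, STAR 2.7.9a, featureCounts 1.6.3, DESeq2 1.40.2 and GRCm39, and the annotation and the treatment of reads shared between genes are not given in the sources used here. Symbols came from the supplied gene table (51948 of 56941 rows). Sequences, exon lengths and gene order came from GENCODE M21 on GRCm38.

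Counts were fitted in edgeR 4.0.16 (R 4.3.3) with TMM scaling, filterByExpr by diet and a robust quasi-likelihood model over all 9 libraries, with p-values adjusted over 18548 genes at 0.05. The script was tested on simulated counts. Shares have 95% Wilson intervals, ratios exact ones, and a count of 0 allows 3 counts. Both kinds of interval treat counts as independent. Evenness needed 200 counts. The libraries of the same diet were distinct, with a chi-square per gene of at least 26.9. Alternatives were DESeq2 1.42.0, other scaling, no filter, a replicate block, fits of 2 groups and leaving out each library.

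Named genes were Ighv11-2, Igkv14-126, members of other B-1 pairs, the 8 most counted Ighv and Igkv genes, Iglv genes, leaders of libraries with at least 50 locus counts, positive changes and genes next to the minimum; others were singled out after their values were seen. The members and lists were chosen with earlier results of these data known. The values of 2 genes of the marker lists are not reported here, and the lists were summed and counted without them.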

Additional observations from a re-analysis of the deposited data

Results flagged for a closer look

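Within the 4 KD libraries, 28 sets of values were examined for a library far from the other 3, and 16 had one by Dixon's criterion. Chance meets that criterion in about 1 of 20 groups of normally distributed values, a rate that does not hold for these sparse counts. In most of the 16 sets the other libraries were at 0, so 1 count was enough. In KD 1 they were the Iglv sum at 3.501 CPM, Iglv1 at 3.501 CPM (45 counts), Ighv1-42 at 2.412 (31 counts), Igkv8-24 at 2.256 (29 counts), Ighv3-6 at 0.7002 (9 counts) and Igkv19-93 at 0.389 (5 counts). In KD 2 they were Igkv3-2 at 1.737 CPM (39 counts), Igkv16-104 at 0.8465 (19 counts), Igkv14-126 at 0.3119 (7 counts), Ighv11-2, Ighv2-3 and Iglv3 at 0.1782 (4 counts each) and Ighv1-82 at 0.0891 (2 counts). In KD 4 they were Igkv1-135 at 1.031 CPM (23 counts) and Igkv12-89 at 0.04481 (1 count). In KD 3 it was Ighv1-55 at 0.08906 CPM (1 count). These values rest on different genes in each library.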

How the results depend on the processing

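The 11 members called lower on KD than on LFD became 26 of 52 with DESeq2, 7 of 64 with no low-count filter, 36 of 55 with the replicate number as a block and 4 of 12 in a fit of only those groups. The shares of all genes called in these fits were 9.57%, 3.42%, 10.8% and 3.12%, against 4.12% in the fit reported. Leaving out 1 library gave 0 to 35. For HFD against LFD the count of 0 became 4 with DESeq2, 1 with no filter and 19 with the replicate block, where 1.45%, 0.261% and 2.13% of all genes were called, and 0 to 10 with 1 library left out, the 10 without LFD 3, where 1.06% were. For KD against HFD it became 2, 1 and 3, beside 9.92%, 1.02% and 12.5% of all genes, and 0 to 1, the 1 without KD 4, beside 9.84%. Whether the replicate numbers pair the samples could not be decided from deviations around means of so few libraries. Same-numbered libraries had correlations of deviations of 0.222, -0.0164 and -0.00265 for LFD with KD. The other pairs of LFD with KD ran from -0.277 to 0.238. Same-numbered values of HFD were 0.0688 and 0.0752 with LFD, and 0.038 and 0.0808 with KD. With DESeq2 size factors the counts were 10, 0 and 0. The cause of these shifts was not tested. The number of members tested moved with the fit, from 8 in the fit of only KD and HFD to 64 with no low-count filter. Among fits with 1 library left out it was lowest without LFD 2, at 31. The mean LFD share of Ighv11-2 was 23.85% with all Ighv rows as denominator and 25.07% on counts per kilobase. That of Igkv14-126 was 21.45% with all Igkv rows as denominator and 24.98% on counts per kilobase. The HFD mean of the members was 35.4 CPM on unscaled totals and 31.6 CPM over all variable rows. On unscaled totals the LFD mean was 402.1 CPM, against 341.7 with TMM, and the KD mean was 3.68, against 5.18. LFD and KD thus lay further apart on unscaled totals. Of 66 fold changes of named genes, 8 changed sign under some alternative, and 0 of these 8 had passed the threshold. Leaving out HFD 1 or HFD 2 leaves that diet with 1 library, assumed to vary like the others. Depth limits shares in KD: 13 member counts in KD 3 show no usage.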
